A study of Mus musculus with 9 samples.

Results

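The superoxide and peroxide detoxifying enzymes described here are 10 of the 16857 genes in a table of mouse liver transcript levels: Sod1, Sod2, Cat, Gpx1, Gpx4, Prdx1, Prdx3, Prdx5, Prdx6 and Txn1. They were chosen by gene symbol, with earlier results of these data known. All 10 were found and passed the filter on low values that left 10451 genes for testing. Counts of members set beside shares of all genes are therefore descriptions, not tests. The study asked what part the adiponectin receptor AdipoR2 has in the action of leonurine, a plant alkaloid, on livers injured by APAP (acetaminophen, a painkiller that damages hepatocytes at overdose). Every mouse had been injected with APAP, so all 4 groups share the injury and none shows an uninjured liver. The groups were labelled Adipor2 knockouts given leonurine (Leo, 2 libraries), labelled Adipor2 knockouts given saline (2 libraries), wild-type mice given leonurine (2 libraries) and wild-type mice given saline (3 libraries). The labels give no dose, interval, age, sex or strain, and do not say which part of Adipor2 was deleted, in which cells, or whether each library came from a different animal. The p-values therefore measure the spread between these libraries, which may in part be technical.

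Superoxide leaks from mitochondria and from several oxidases, and superoxide dismutases turn it into hydrogen peroxide: Sod1, with copper and zinc, in the cytosol, and Sod2, with manganese, in the mitochondrial matrix. Hydrogen peroxide is then removed by catalase (Cat), a heme enzyme of peroxisomes, by glutathione peroxidases such as Gpx1 and Gpx4, which are selenoproteins, and by peroxiredoxins, most of which are reduced again by thioredoxin (Txn1). In acetaminophen injury a reactive metabolite uses up glutathione and binds mitochondrial proteins, and mitochondrial oxidant stress follows, which is why these enzymes are often measured in that model.

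Levels are given in FPKM, sequenced fragments scaled by transcript length and by library depth. This does not even out shifts of the typical gene between libraries. The median-ratio factor is the median over genes of a library's level relative to the gene's average. It ran from 0.85 in wild-type leonurine replicate 2 to 1.15 in labelled knockout saline replicate 2. Depth was close to even: the libraries held 35316653 to 38996734 fragments assigned to genes, as recovered from the FPKM values. The least covered member in any library was Prdx3, with 3333 fragments. The targeted gene was present in every library. Adipor2 stood at 75.75 and 84.95 FPKM in labelled knockouts given leonurine and at 70.13 and 75.99 FPKM in labelled knockouts given saline, against 78.52 and 88.16 FPKM in wild types given leonurine and 140.8, 125.8 and 135.3 FPKM in wild types given saline. The labelled knockouts thus still held Adipor2 RNA, at the level of wild types given leonurine, and the gene's total level does not check the genotype. A further difference ran with one group: 4 Y-linked genes summed to 0 and 0.005875 FPKM in the labelled knockouts given leonurine, against 17.2 to 23.8 FPKM in the other libraries. The labelled knockouts given leonurine enter 3 of the 5 comparisons. In those, whatever goes with that difference, such as the sex of the animals, cannot be told apart from leonurine or genotype. Hepatocyte markers were high in every library (8 genes summing to 34810 FPKM or more, most of it Alb), and the lowest sum belonged to the wild-type group given leonurine.

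Gpx1 had the highest mean of the 10 members in every group, and Sod2 the lowest. In FPKM, Gpx1 averaged 1564 ± 176 in labelled knockouts given leonurine, 1495 ± 362 in labelled knockouts given saline and 872.2 ± 248 in wild types given leonurine (SD, n = 2 each), against 1474 ± 77.9 in wild types given saline (SD, n = 3). Sod2 averaged 34.11 ± 0.519 FPKM in labelled knockouts given leonurine, 34.81 ± 1.1 FPKM in labelled knockouts given saline and 40.36 ± 0.608 FPKM in wild types given leonurine, against 34.59 ± 1.29 FPKM in wild types given saline. Cat held the second place by its mean in 3 groups, next to Sod1, whose libraries overlapped with those of Cat in each of the 3. In wild types given leonurine Cat stood at place 4, below Prdx1, and there its libraries overlapped with those of Prdx1 but not with those of Gpx4 beneath it. Among the middle members, Gpx4, Txn1, Prdx5 and Prdx6 lay between 79.78 and 192 FPKM by group mean, and their order changed from group to group, with overlap between most neighbours in wild types given leonurine. The 10 members together summed to 4941 and 4175 FPKM in labelled knockouts given leonurine, to 5416 and 4294 FPKM in labelled knockouts given saline, to 3188 and 2115 FPKM in wild types given leonurine, and to 4414, 4694 and 4578 FPKM in wild types given saline.

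**Figure D1:**
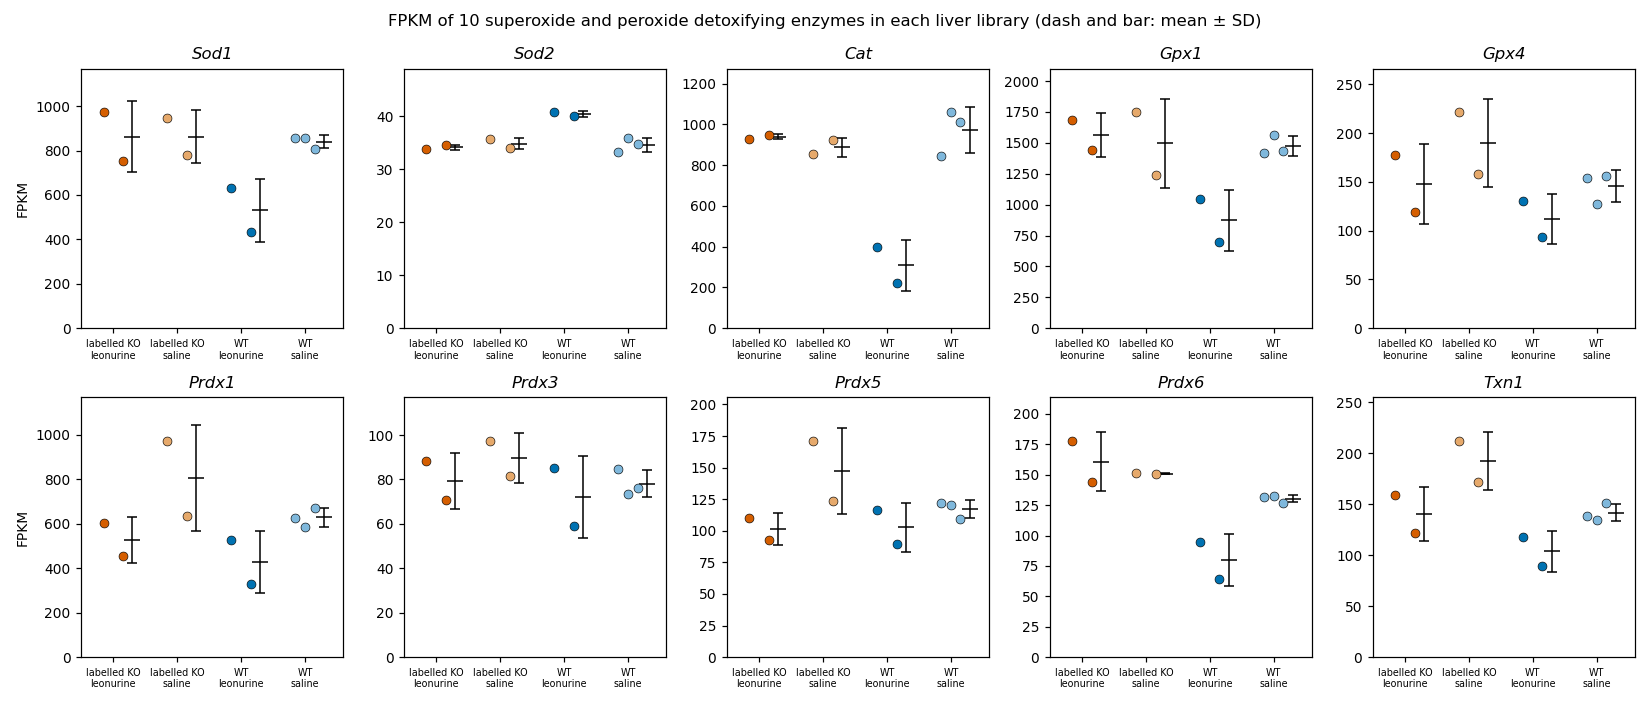
Level of each of the 10 members in the 9 libraries, in FPKM on linear axes from 0, by group; each point is 1 library and each dash with its bar is the group mean ± SD (n = 2, or 3 for wild types given saline). The 2 wild-type libraries given leonurine lie lowest for Cat, at 398.3 and 220.4 FPKM, while Sod2 shows the reverse order, with both of those libraries highest.

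Catalase was the member that changed with leonurine in wild-type livers. Cat had 398.3 and 220.4 FPKM in wild types given leonurine, against 843.6, 1062 and 1010 FPKM in wild types given saline. Both leonurine libraries lay below all saline libraries, and the leonurine mean of 309.4 ± 126 FPKM (SD, n = 2) was 31.8% of the saline mean of 972 ± 114 FPKM (SD, n = 3). The log2 fold change was -1.7 ± 0.26 (SE) with a 95% interval from -2.28 to -1.13, and the adjusted p was 0.00879 (limma on log2(FPKM + 1), Benjamini-Hochberg over all genes tested). The size of the change moved from -2.13 without leonurine replicate 1 to -1.28 without leonurine replicate 2. Without saline replicate 1, 2 or 3 the adjusted p was 0.0205, 0.045 and 0.0448, and without the filter on low values 0.0462 (limma). These lie under 0.05, most by a narrow margin. In a bulk sample, fewer cells that express a gene and less of its RNA per cell cannot be told apart.

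Cat lies on the minus strand of chromosome 2 at chr2:103453849-103485160 (GRCm38), and its upstream sequence is shown because Cat is the member that passed the test in the most comparisons. The stretch below is the 243 bases just before the outermost annotated start, chr2:103485161-103485403 on the minus strand, from RefSeq's GRCm38.p6 promoter, with CCAAT on either strand and GGGCGG in capitals.
Cat: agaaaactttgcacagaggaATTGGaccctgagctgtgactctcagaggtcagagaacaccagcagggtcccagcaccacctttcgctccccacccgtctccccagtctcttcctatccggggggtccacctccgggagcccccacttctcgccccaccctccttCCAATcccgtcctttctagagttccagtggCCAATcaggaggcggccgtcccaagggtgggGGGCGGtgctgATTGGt
It holds 4 matches of CCAAT, of which 2 read forward and 2 on the other strand (as ATTGG), and 1 match of GGGCGG, with no overlap between them. Searched on both strands in the 250 bases before the start, CCAAT occurred in 33.8% of 32851 RefSeq promoters, and 4 or more copies occurred in 0.8%. Of the 9 members with a promoter entry, CCAAT was found in Cat, Gpx4, Sod1 and Sod2, and GGGCGG in 8 of 9, against 32.7% of all promoters. The antioxidant response core TGACNNNGC was found in Prdx1 and Sod1, against 10.2% of all promoters, and the forkhead sequence GTAAACA in none of the 9, against 3.2%. A member with more than 1 promoter entry counted if any of them matched, while the shares are over single entries. The 2 kinds of figure are thus not fully alike. These are letter matches, not measured binding.

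Across all 10 members, 1 passed the test in wild types given leonurine against saline, as a fall (Cat), where 4.72% of the genes tested fell, 1.9% rose and so 6.62% changed in either direction. At an unadjusted p under 0.05 there were 5 members, against 24.4% of all genes. Every leonurine library lay below every saline library for 6 members, against 34.2% of all genes, and above for 1 member (Sod2), against 12.8%. The median log2 fold change of the members was -0.52, against -0.12 over all genes. Scaling each library by its median ratio moved the median of all genes to 0.002 and that of the members to -0.371, so the main values hold a shift of -0.123 in the median gene. The members' median was -0.247 under quantile normalization, where that of all genes was 0.007, and -0.791 or -0.259 without leonurine replicate 1 or 2.

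The superoxide dismutases lay on opposite sides of their saline levels, neither past the test. Sod1 (chr16:90220754-90226329, plus strand) had 631.8 and 431.7 FPKM in wild types given leonurine, against 857.3, 857.8 and 806.1 FPKM in wild types given saline. All leonurine values were lower, but the log2 fold change of -0.68 ± 0.23 (SE) had an adjusted p of 0.103 (limma). Sod1 shares 650 bases with Scaf4 on the opposite strand, and since strand use in counting is not given, reads there may belong to either gene. Sod2 (chr17:13006846-13040063, plus strand) had 40.79 and 39.93 FPKM in wild types given leonurine, against 33.21, 35.78 and 34.78 FPKM in wild types given saline. Both leonurine libraries were higher, by 0.22 ± 0.13 on the log2 scale (SE, 95% interval -0.08 to 0.52), with an adjusted p of 0.351 (limma).

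The glutathione peroxidases did not pass the test either. Gpx1 (chr9:108338903-108340343, plus strand), the abundant enzyme that reduces soluble peroxides, had 1047 and 697.1 FPKM in wild types given leonurine, against 1421, 1563 and 1436 FPKM in wild types given saline. The groups were separate, and the log2 fold change was -0.78 ± 0.24 (SE, 95% interval -1.33 to -0.24) with an adjusted p of 0.0885 (limma). Gpx4 (chr10:80047166-80056439, plus strand), which reduces peroxides within membrane lipids and guards against ferroptosis, had 130.3 and 93.81 FPKM in wild types given leonurine, against 153.7, 126.9 and 156.2 FPKM in wild types given saline. Its groups overlapped, and its log2 fold change of -0.39 had a 95% interval from -0.94 to 0.17.

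Among the peroxiredoxins the lower values of Prdx6 came nearest to the threshold. Prdx6 (chr1:161240112-161251219, minus strand), the member of the family with a single catalytic cysteine, which also has phospholipase activity, had 95.06 and 64.49 FPKM in wild types given leonurine, against 131.5, 132.9 and 126.9 FPKM in wild types given saline. The log2 fold change was -0.73 ± 0.2 (SE) with an adjusted p of 0.057 (limma). Prdx1 (chr4:116685544-116700822, plus strand), the cytosolic form, had 525.3 and 329.2 FPKM with leonurine, against 627.2, 586.1 and 671.2 FPKM with saline. These values were separate too, with a log2 fold change of -0.59 whose 95% interval ran from -1.19 to 0.01. Prdx3 (chr19:60864051-60874556, minus strand), the mitochondrial form, had 85.09 and 59.07 FPKM with leonurine, against 84.89, 73.57 and 76.02 FPKM with saline. Prdx5 (chr19:6906697-6910106, minus strand), found in mitochondria, peroxisomes and cytosol, had 116.2 and 89.27 FPKM with leonurine, against 122.2, 120.3 and 109.2 FPKM with saline. Both overlapped between groups, at log2 fold changes of -0.14 for Prdx3 and -0.2 for Prdx5 that were 0.18 and 0.16 under quantile normalization. Prdx5 shares 409 bases with Trmt112 on the opposite strand. Prdx6, Gpx4 and Txn1 have named pseudogenes (Prdx6-ps2, Gpx4-ps2 and Txn-ps1), none of which has a level of its own in these data. Whether reads were shared with them is not given. Thioredoxin, Txn1 (chr4:57943373-57956411, minus strand), had 117.7 and 89.58 FPKM with leonurine, against 138.7, 134.8 and 151.5 FPKM with saline, a log2 fold change of -0.46 ± 0.2 (SE) with an adjusted p of 0.195 (limma).

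Leonurine replicate 2 of the wild types was the lower of the 2 for every member. The median-ratio factor of that library was the lowest of all, at 0.85 against 1.02 for replicate 1. Genes at large thus also read lower there, and the order is not particular to these enzymes. Without replicate 1, so with replicate 2 as the only leonurine library and its spread assumed to be that of the other groups, Sod1 (-0.96, adjusted p 0.024), Gpx1 (-1.08, 0.0217) and Prdx6 (-1.0, 0.00985) also passed the test (limma). Without replicate 2 they did not, at -0.41 for Sod1 (adjusted p 0.46), -0.49 for Gpx1 (0.414) and -0.45 for Prdx6 (0.313, limma). With replicate 2 alone those 3 and Cat make 4 members, against 1 with all libraries. The same pair of libraries held other differences. Of 8 neutrophil markers 5 were tested. All 5 had a positive log2 fold change, and 2 (Ngp and Ltf) passed the test. The list summed to 62.85 to 142 FPKM with leonurine, against 8.876 to 43.82 FPKM with saline, where 1 marker was at 0 in every library. Of 8 erythroid markers 5 were tested. All 5 had a negative log2 fold change, and 1 (Alas2) passed the test. The erythroid sums were 92.92 to 95.36 FPKM with leonurine against 175.7 to 222.3 FPKM with saline. Of 8 hepatocyte markers 1 (Ttr) was called lower, and none was at 0. The hepatocyte sums were 34810 to 58230 FPKM with leonurine against 67730 to 74260 FPKM with saline. Alb made up most of each sum, with 46280 and 26490 FPKM in the leonurine libraries. By log2 fold change 6 of the 8 hepatocyte markers were lower and 2 higher. No macrophage or stellate marker passed, while of 6 endothelial markers 1 was called higher and 1 lower. The part of these differences in the enzyme values was not tested.

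**Figure D2:**
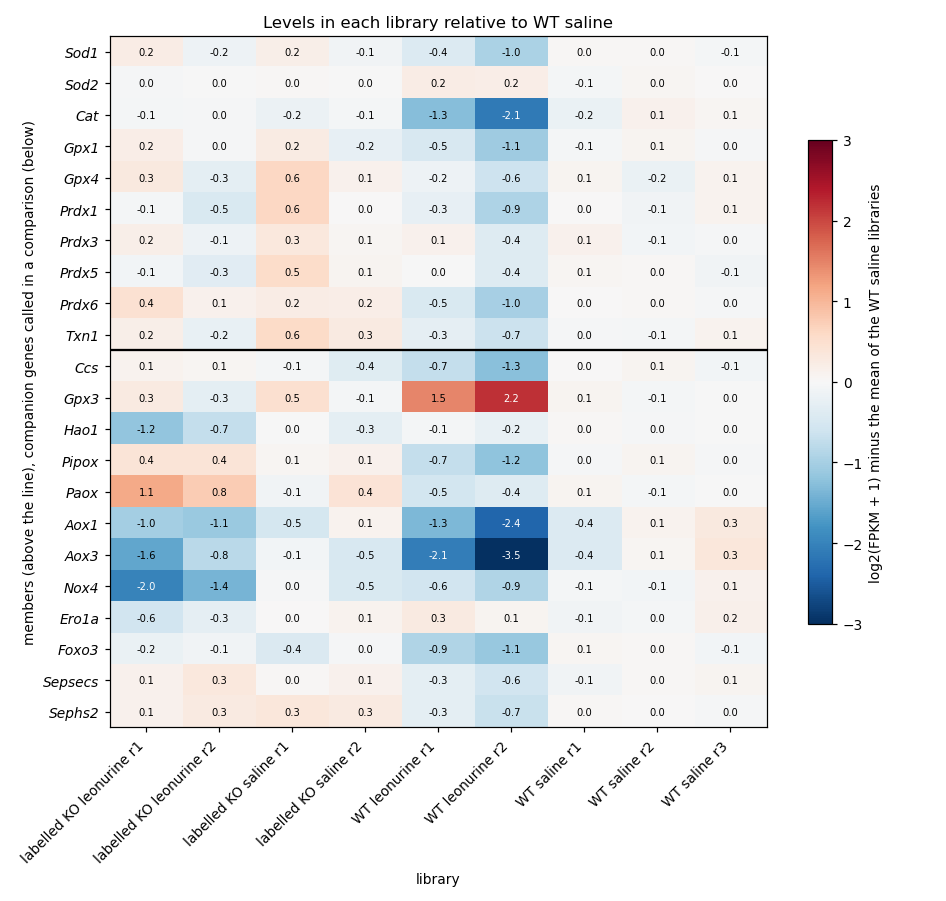
Each member's log2(FPKM + 1) in each of the 9 libraries minus its mean over the 3 wild-type saline libraries; colour and printed value give the difference in log2 units. Rows below the line are genes of the related lists that passed a test in some comparison. Among the members the darkest cells are those of Cat in wild types given leonurine, at -1.278 and -2.129 for replicates 1 and 2, while both Sod2 cells there are above 0.

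Ratios between members set the wild-type leonurine libraries apart for several pairs. Ratios within a library do not change when a library is scaled by a single factor. They reuse the values given above. Gpx1 over Cat was 1.81 and 1.52 in labelled knockouts given leonurine, 2.05 and 1.35 in labelled knockouts given saline, 2.63 and 3.16 in wild types given leonurine, and 1.68, 1.47 and 1.42 in wild types given saline. The ratio was thus highest in the wild-type leonurine libraries, with no overlap. Cat over Sod2 was 27.6 and 27.5 in labelled knockouts given leonurine, 24 and 27.1 in labelled knockouts given saline, 9.76 and 5.52 in wild types given leonurine, and 25.4, 29.7 and 29 in wild types given saline. Sod1 over Sod2 was 28.9 and 21.8 in labelled knockouts given leonurine, 26.6 and 22.9 in labelled knockouts given saline, 15.5 and 10.8 in wild types given leonurine, and 25.8, 24 and 23.2 in wild types given saline, so it too was lowest in the wild-type leonurine libraries. Sod1 over Ccs, the chaperone that loads it with copper, spanned only 5.65 to 8.14 over all libraries, with the wild-type leonurine libraries highest at 8.07 and 8.14. Cat over Prdx3 spanned 3.73 to 14.4, with the wild-type leonurine libraries lowest at 4.68 and 3.73. Prdx1 over Txn1 spanned 3.68 to 4.58, and the wild-type leonurine libraries, at 4.46 and 3.68, were not set apart. Nor were they for Gpx1 over Gpx4, at 8.03 and 7.43, against 7.9 and 7.87 in labelled knockouts given saline.

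In the labelled knockouts no member passed the test for leonurine against saline, where 0.603% of the genes tested rose and 1.49% fell, 2.1% in either direction (limma). At an unadjusted p under 0.05 there was 1 member, Prdx5, against 22.4% of all genes. Cat had 930.8 and 948.8 FPKM in labelled knockouts given leonurine, against 855.3 and 921.6 FPKM in labelled knockouts given saline. Its groups were separate by a narrow margin, at a log2 difference of 0.08 ± 0.28 (SE, 95% interval -0.55 to 0.71, adjusted p = 0.885, limma). The interval leaves out the size of the change seen in wild types, -1.7, and its lower bound is -0.55.

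For the dismutases in the labelled knockouts the values lay close together. Sod1 had 974.2 and 751.4 FPKM with leonurine, against 947.6 and 778 FPKM with saline. Sod2 had 33.74 and 34.48 FPKM with leonurine, against 35.59 and 34.03 FPKM with saline. Both pairs of groups overlapped. Gpx1 had 1689 and 1440 FPKM with leonurine, against 1751 and 1240 FPKM with saline, and Gpx4 had 177.2 and 118.7 FPKM with leonurine, against 221.8 and 157.6 FPKM with saline. Both glutathione peroxidases overlapped between treatments too.

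In the labelled knockouts 3 members were lower in both leonurine libraries than in both saline libraries, none past the test. Prdx5 had 110.1 and 92.37 FPKM with leonurine, against 171.3 and 123.4 FPKM with saline, a log2 difference of -0.52 ± 0.22 (SE) with an adjusted p of 0.206 (limma). Prdx1 had 600.9 and 453.2 FPKM with leonurine, against 972.1 and 636 FPKM with saline, at -0.59 with a 95% interval from -1.25 to 0.07. Txn1 had 158.9 and 121.8 FPKM with leonurine, against 212.1 and 171.8 FPKM with saline, at -0.45 with a 95% interval from -0.94 to 0.04. That separation held for 40.8% of all genes, and 1 member (Cat) lay above, as did 8.61% of all genes. Prdx3 had 88.43 and 70.6 FPKM with leonurine against 97.45 and 81.65 FPKM with saline, and Prdx6 178 and 143.8 FPKM with leonurine against 151.4 and 150.6 FPKM with saline. Prdx3 and Prdx6 both overlapped between treatments. The members' median was -0.1 against -0.19 over all genes, and under median-ratio scaling the medians were 0.105 for the members and -0.017 for all genes, so the sign of the members' median depends on the scaling. With a library left out it ran from -0.263 to -0.022.

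Markers also differed between these groups. All 5 neutrophil markers tested had a positive log2 difference in labelled knockouts given leonurine, and 1 passed the test. Neutrophil sums over the 8 listed were 25.86 to 63.3 FPKM with leonurine, against 5.887 to 13.69 FPKM with saline. The 4 Y-linked genes were all lower. Of 5 erythroid markers tested 1, Alas2, was called lower, at a log2 difference of -1.41. The other 4 lay higher, at 0.93 to 1.12, without passing. Sums over the 8 listed were 362.3 to 784.8 FPKM with leonurine against 242.1 to 402.4 FPKM with saline. No hepatocyte marker passed, at sums of 80780 to 83170 FPKM with leonurine against 63630 to 64900 FPKM with saline. Alb made up most of these hepatocyte sums, and by log2 difference 4 of the 8 markers were higher and 4 lower. The part of all these markers in the members' values was not tested.

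The test of whether the leonurine response differed by genotype was passed by 1 member, Cat, as a higher response in the labelled knockouts, where 1.71% of all genes passed in that direction, 2.03% in the other and 3.74% in either. The response of Cat in labelled knockouts minus that in wild types was 1.79 ± 0.38 on the log2 scale (SE, 95% interval 0.93 to 2.64, adjusted p = 0.0366, limma). Leaving out any single library other than a wild-type leonurine library ended this call: the adjusted p was 0.0849 and 0.0772 without labelled knockout leonurine replicate 1 or 2, 0.108 and 0.0747 without labelled knockout saline replicate 1 or 2, and 0.0654, 0.108 and 0.0962 without wild-type saline replicate 1, 2 or 3, while the difference itself stayed between 1.36 and 2.21 over all libraries left out. It was also lost without the filter on low values, at an adjusted p of 0.101. Next in size were Gpx1 at 0.87 (adjusted p = 0.214), Prdx6 at 0.81 with a 95% interval from 0.16 to 1.46 (adjusted p = 0.152) and Sod1 at 0.68 (adjusted p = 0.293), none of which passed (limma). At an unadjusted p under 0.05 there were 3 members, against 20.5% of all genes. The members' median difference was 0.01 against -0.07 over all genes, and -0.202 under quantile normalization, and ran from -0.201 to 0.298 with a library left out.

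**Figure D3:**
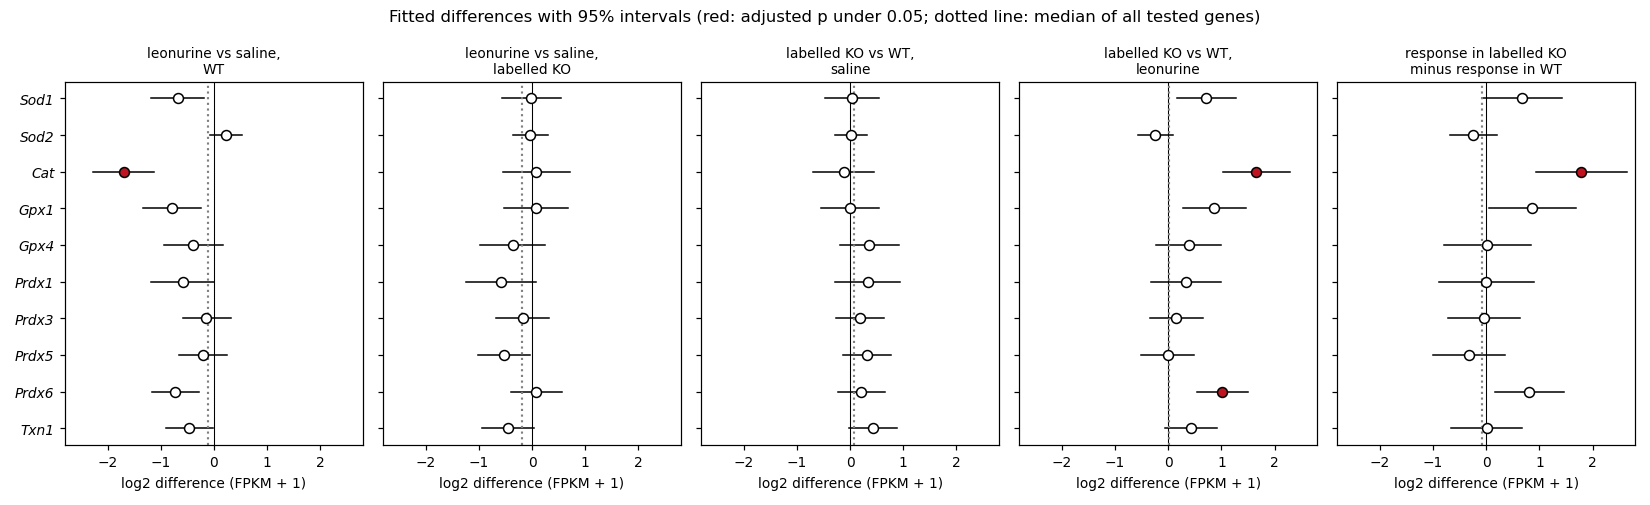
Log2 difference of each member in the 5 comparisons, with its 95% interval; red points passed the test at an adjusted p under 0.05 (limma), and the dotted line is the median of all tested genes. Cat is red in 3 of the panels and Prdx6 in 1, that of labelled knockouts against wild types under leonurine, and no point is red in the labelled knockouts' own response or under saline.

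Under saline, labelled knockouts and wild types did not differ in any member by the test (limma), where 2 of all genes tested, 0.0191%, passed, with 0.00957% higher and 0.00957% lower. No member reached an unadjusted p under 0.05, against 13.2% of all genes. Cat had 855.3 and 921.6 FPKM in labelled knockouts given saline, against 843.6, 1062 and 1010 FPKM in wild types given saline, with a log2 difference of -0.12 (95% interval -0.7 to 0.45). The member with the smallest p was Txn1, with 212.1 and 171.8 FPKM in labelled knockouts against 138.7, 134.8 and 151.5 FPKM in wild types, at 0.43 ± 0.2 on the log2 scale (SE, adjusted p = 0.395, limma). In 4 members (Gpx4, Prdx5, Prdx6 and Txn1) both labelled knockout libraries lay above all wild-type libraries, as they did for 27.6% of all genes, and in no member below, against 11.1%. The members' median was 0.2, against 0.08 over all genes, but 0.042 without labelled knockout replicate 1, 0.107 under median-ratio scaling and 0.072 under quantile normalization. Erythroid markers summed to 242.1 to 402.4 FPKM in labelled knockouts, against 175.7 to 222.3 FPKM in wild types, with 0 of 5 called, and their part in the members' values was not tested.

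Under leonurine, labelled knockouts held more Cat and Prdx6 than wild types. Cat had 930.8 and 948.8 FPKM in labelled knockouts given leonurine, against 398.3 and 220.4 FPKM in wild types given leonurine, a mean 3.04 times as high. Its log2 difference was 1.66 ± 0.28 (SE, 95% interval 1.03 to 2.29, adjusted p = 0.00752, limma), with no overlap. Prdx6 had 178 and 143.8 FPKM in labelled knockouts, against 95.06 and 64.49 FPKM in wild types, a mean 2.02 times as high and also without overlap. Its log2 difference was 1.02 ± 0.21 (SE, 95% interval 0.54 to 1.5, adjusted p = 0.0169, limma). With only these 4 libraries in the fit the adjusted p was 0.0741 for Cat and 0.143 for Prdx6, and Prdx6 also lost its call without wild-type replicate 2 (0.0619) and without labelled knockout replicate 1 (0.104). Under quantile normalization the difference of Prdx6 was smaller, at 0.62. The wild-type leonurine libraries are shared with the comparison of wild types above, so the low Cat values there enter both.

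The 2 members that rose were set against 6.99% of all genes that rose in this comparison, 5.25% that fell and 12.2% called in either direction. At an unadjusted p under 0.05 there were 4 members, against 28.2% of all genes. Sod1 (0.71, adjusted p = 0.0936) and Gpx1 (0.87, adjusted p = 0.0651) were separate between groups but did not pass (limma). In all, 5 members were higher in both labelled knockout libraries, against 25.6% of all genes, and 1 (Sod2) was lower in both, against 26.4%. Prdx5 was nearly level, at -0.01. The members' median was 0.41 against 0.01 over all genes, and 0.066 under quantile normalization, and ran from 0.184 to 0.65 with a library left out. Erythroid markers moved with this comparison. All 5 tested had a positive log2 difference, and 4 were called higher in labelled knockouts. Their sums were 362.3 to 784.8 FPKM in labelled knockouts against 92.92 to 95.36 FPKM in wild types, and none was at 0 throughout a group. Hepatocyte markers summed to 80780 to 83170 FPKM in labelled knockouts against 34810 to 58230 FPKM in wild types, with 1 of 8 called, as higher. Alb made up most of these sums, and by log2 difference 6 of the 8 were higher and 2 lower. The 4 Y-linked genes were lower, of which 3 were at 0 in both labelled knockout libraries. None of these lists was tested for a part in the differences of Cat and Prdx6.

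**Figure D4:**
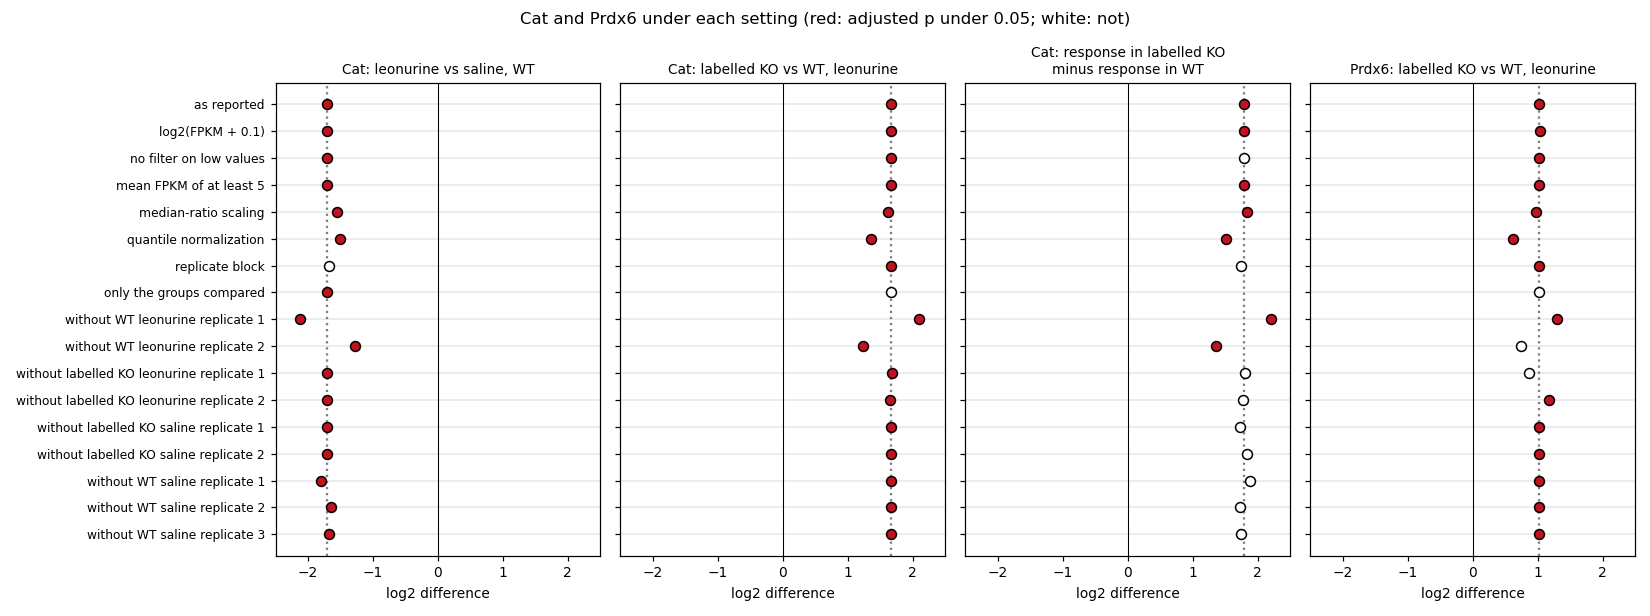
Log2 difference of Cat and Prdx6 in the comparisons where they passed the test, under each alternative setting and with each library left out; red points have an adjusted p under 0.05 (limma), white points do not, and the dotted line is the value as reported. The direction is the same in all settings drawn, while the difference of responses loses its call under most of them.

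The members did not all vary together over the 9 libraries, which share 4 groups, so the following correlations of log2(FPKM + 1) are descriptions. The closest pairs were Sod1 with Gpx1 (r = 0.98) and Gpx4 with Txn1 (0.96). Next were Prdx1 with Txn1, Gpx4 with Prdx1 and Sod1 with Prdx6 (0.95 each). Cat followed Prdx6 and Gpx1 (0.92 each). Sod2 ran against the rest, at -0.86 with Cat, -0.84 with Prdx6 and -0.78 with Sod1. Of 3666 genes with a mean of at least 10 FPKM, those with the pattern most like Cat were Sirt3 (r = 0.996), Dazap2 (0.993) and Ces1e (0.993). Sirt3 had 36.55 and 36.8 FPKM in labelled knockouts given leonurine, 34.75 and 34.56 FPKM in labelled knockouts given saline, 24.57 and 17.85 FPKM in wild types given leonurine, and 34.54, 37.02 and 36.1 FPKM in wild types given saline. For Prdx6 the most alike were Acp5 (0.995), Rida (0.994) and Rarres2 (0.991).

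Of 17 other tested genes of superoxide, peroxide and thioredoxin handling, 1 was called higher and 1 lower with leonurine in wild types. Over all genes 1.9% rose and 4.72% fell. The median of the 17 was -0.34, against -0.12 over all genes. Gpx3, the glutathione peroxidase secreted into plasma, had 16.6 and 28.25 FPKM in wild types given leonurine, against 5.68, 5.086 and 5.314 FPKM in wild types given saline. It was higher in both libraries, at a log2 fold change of 1.84 ± 0.25 (SE, adjusted p = 0.00669, limma), where Gpx1 and Gpx4 had -0.78 and -0.39. Ccs had 78.29 and 53.02 FPKM with leonurine, against 129.6, 134.8 and 120.6 FPKM with saline, at -0.98 ± 0.2 (SE, adjusted p = 0.0236, limma). The call of Ccs was lost without leonurine replicate 2 (0.118) and without saline replicate 1, 2 or 3 (0.0671, 0.0951 and 0.078), and without the filter on low values (0.0585). In labelled knockouts none of the 17 passed for leonurine against saline, where 2.1% of all genes did. At an unadjusted p under 0.05 there were 3, against 22.4% of all genes. None passed under saline between genotypes, where 0.0191% of all genes did, with 0 at an unadjusted p under 0.05, against 13.2%. Under leonurine, Ccs was higher in labelled knockouts than in wild types (1.07, adjusted p = 0.0145) and Gpx3 lower (-1.85, adjusted p = 0.00479), and Ccs lost its call without wild-type replicate 2 (0.0558) or labelled knockout replicate 1 (0.0813), and with only these groups in the fit (0.117). Gpx3 had 6.672 and 4.193 FPKM in labelled knockouts given leonurine, against 7.846 and 5.099 FPKM in labelled knockouts given saline, and its responses differed by -2.05 between genotypes (adjusted p = 0.0224, limma). That call was lost without wild-type saline replicate 2 or 3 (0.0621 and 0.0604) and without the filter on low values (0.0834). It was also lost without labelled knockout leonurine replicate 2 or labelled knockout saline replicate 1.

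Of 13 tested oxidases that make hydrogen peroxide or superoxide, 3 were called lower with leonurine in wild types and none higher. Over all genes 4.72% fell and 1.9% rose. The median of the oxidases was -0.38, against -0.12 over all genes. Aox3 and Aox1 are aldehyde oxidases and close relatives, so reads may be split between them. Aox3 had 23.84 and 8.15 FPKM with leonurine, against 78.83, 108.9 and 132.1 FPKM with saline (-2.8 ± 0.41, SE, adjusted p = 0.00759, limma). Aox1 had 7.934 and 3.334 FPKM with leonurine, against 16.16, 23.4 and 26.65 FPKM with saline (-1.86 ± 0.32, SE, adjusted p = 0.0132), a call lost without leonurine replicate 2 (0.0878), without saline replicate 2 (0.0561) or 3 (0.0586), and without the filter on low values (0.065). Pipox, the peroxisomal sarcosine and pipecolic acid oxidase, had 83.65 and 59.48 FPKM with leonurine, against 134.3, 146.3 and 134.3 FPKM with saline. Its log2 fold change was -0.96 ± 0.18 (SE, adjusted p = 0.0182, limma), a call lost without leonurine replicate 2 (0.0797) and without saline replicate 1, 2 or 3 (0.0524, 0.0859 and 0.0751).

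Of the 13 oxidases 1 was called lower with leonurine in the labelled knockouts, where 1.49% of all genes fell. It was Nox4, the NADPH oxidase that yields hydrogen peroxide. Nox4 had 0.9466 and 1.997 FPKM in labelled knockouts given leonurine, against 6.675 and 4.714 FPKM in labelled knockouts given saline (-1.46 ± 0.23, SE, adjusted p = 0.0134, limma), a call lost without leonurine replicate 1 (0.0549), without saline replicate 1 (0.108), without the filter on low values (0.058) and with only these groups in the fit (0.0731). At these levels the added 1 FPKM makes the fold change smaller than the ratio of the values. None of the 13 passed between genotypes under saline, with 0 at an unadjusted p under 0.05, against 0.0191% and 13.2% of all genes. Under leonurine 3 were called higher and 3 lower in labelled knockouts than in wild types, against 6.99% and 5.25% of all genes. Paox, the peroxisomal polyamine oxidase, had 5.104 and 3.746 FPKM in labelled knockouts, against 0.9218 and 1.154 FPKM in wild types (1.4, adjusted p = 0.00352), and Pipox 179.9 and 180.5 FPKM in labelled knockouts against 83.65 and 59.48 FPKM in wild types (1.34, adjusted p = 0.00408). With only these groups in the fit Pipox lost its call (0.0667). Nox4 (-0.96, adjusted p = 0.0287) and Hao1, the peroxisomal glycolate oxidase (-0.82, adjusted p = 0.032), were lower, and each lost its call without wild-type leonurine replicate 1 (0.105 and 0.0709), without wild-type leonurine replicate 2 (0.058 and 0.0657) and without labelled knockout leonurine replicate 1 (0.167 and 0.177), and with only these groups in the fit (0.1085 and 0.194). Hao1 lost it also without any of the wild-type saline libraries (0.0615 to 0.0679). The responses differed between genotypes for Pipox (1.24) and Paox (1.25), both at an adjusted p of 0.0376 (limma). Both of these calls were lost for most single libraries left out, and without the filter on low values (0.0616 for Pipox and 0.0997 for Paox).

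Of 8 tested regulators of these enzymes 1 passed in wild types given leonurine, where 6.62% of all genes changed in either direction. Foxo3, a forkhead factor known to act on Sod2 and Cat, had 6.802 and 5.641 FPKM with leonurine, against 14.1, 13.84 and 12.86 FPKM with saline (-1.02 ± 0.16, SE, adjusted p = 0.00971, limma), and lost its call without leonurine replicate 2 (0.0679). Foxo3 was higher in labelled knockouts than in wild types under leonurine (0.88, adjusted p = 0.0133), a call lost without wild-type replicate 2 (0.071) or labelled knockout replicate 1 (0.0604) and with only these groups in the fit (0.0815), and its responses differed by 1.11 (adjusted p = 0.0363, limma). The call for the difference of responses of Foxo3 was lost for most single libraries left out, and without the filter on low values (adjusted p 0.0739, limma). No other regulator passed in any of the 5 comparisons. Of 7 tested genes for selenocysteine synthesis and selenium transport, which Gpx1 and Gpx4 depend on, none passed in wild types. At an unadjusted p under 0.05 there were 2, against 24.4% of all genes. Their median was -0.37, against -0.12 over all genes. Under leonurine 2 of the 7 were called higher in labelled knockouts than in wild types, against 6.99% of all genes. Sepsecs, the enzyme that completes selenocysteine on its tRNA, had 9.873 and 11.39 FPKM in labelled knockouts against 7.122 and 5.735 FPKM in wild types (0.65, adjusted p = 0.028), and Sephs2, which makes the selenium donor, had 257.8 and 282.4 FPKM in labelled knockouts against 191.4 and 148.4 FPKM in wild types (0.68, adjusted p = 0.0474). Both calls were lost without wild-type replicate 2 (0.136 for Sepsecs and 0.149 for Sephs2, limma). Sepsecs lost its call without 4 other libraries as well, and Sephs2 without 7 others and under quantile normalization (0.239). With only these groups in the fit both were lost (0.166 for Sepsecs and 0.281 for Sephs2).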

How the data were processed

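Liver RNA was extracted with TRIzol and made into libraries with a VAHTS Universal V6 kit, per the labels' protocols. The authors deposited FPKM values per gene, made with fastp, HISAT2, HTSeq and R 3.2.0 on mm10, per the submitters' processing notes; the roles of the tools, the annotation and strand use are not given in the sources used here. Whole fragments were recovered from ratios of FPKM values for 16857 of 16857 genes (tolerance 0.0001), giving 35316653 to 38996734 fragments per library.

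Libraries were grouped by title. FPKM values were tested as log2(FPKM + 1) with limma 3.58.1 (R 4.3.3): 1 fit over 4 groups and 9 libraries, with a mean-variance trend, 5 residual degrees of freedom and Benjamini-Hochberg adjustment over the 10451 genes at 1 FPKM or more in at least 2 libraries. A gene was called at an adjusted p under 0.05. The fold changes are on the log2(FPKM + 1) scale, which understates changes of low genes. The fit was tested on simulated data.

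The members and gene lists were chosen with earlier results of these data known, so their counts beside the shares of all genes are descriptions. All members were named; of other lists, called genes were named, at most 4 per list and comparison by smallest p. Genes alike in pattern are the 3 with the highest Pearson r for each member called, at a mean of at least 10 FPKM. Alternatives were a pseudocount of 0.1, no filter, a mean of at least 5 FPKM, median-ratio scaling, quantile normalization, a replicate block, only the groups compared, and each library left out. Gene positions are from GENCODE on GRCm38, and promoter letters from RefSeq.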

Additional observations from a re-analysis of the deposited data

Results flagged for a closer look

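For 6 genes the test of the difference itself found that the leonurine response was not the same in labelled knockouts and wild types (limma, adjusted over all genes tested). Over all genes 3.74% passed this test. The labelled knockouts given leonurine also lacked Y-linked RNA, and whatever goes with that cannot be told apart from a difference of responses. The response in labelled knockouts minus that in wild types was 1.79 for Cat, 1.27 for Ccs (adjusted p = 0.047), -2.05 for Gpx3, 1.24 for Pipox, 1.25 for Paox and 1.11 for Foxo3, in log2 units. Of these 6 genes Cat is the only member, and the other 5 come from the lists of related enzymes, oxidases and regulators. Tested were 10 members, 17 related enzymes, 13 oxidases, 8 regulators and 7 selenium genes. Ccs stood at 139 and 133.1 FPKM in labelled knockouts given leonurine and 123.1 and 99.92 FPKM in labelled knockouts given saline, while Foxo3 stood at 11.75 and 12.68 FPKM with leonurine and 9.815 and 13.31 FPKM with saline in labelled knockouts. Each of the 6 lost its call when some single library was left out, and all but Gpx3 lost it for most of the libraries. Without the filter on low values all 6 calls were lost, at adjusted p from 0.0616 for Pipox to 0.101 for Cat (limma).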

How the results depend on the processing

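Groups of 2 and 3 libraries limit the values here. The number of members called in wild types given leonurine against saline was 1, became 2 with a mean of at least 5 FPKM and 2 with quantile normalization, and 0 when the replicate number entered as a block (Cat -1.67, adjusted p = 0.0625, limma); it ranged from 1 to 4 with a library left out. Between labelled knockouts and wild types under leonurine it was 2, became 0 with only the groups compared, and ranged from 1 to 4. For the difference of responses it was 1, became 0 without the filter and 0 in the blocked fit, and ranged from 0 to 2. The labels do not say that equal replicate numbers pair libraries. Correlations of same-numbered deviations were low but all positive, at 0.02 to 0.15. With groups of 2 and 3 libraries they cannot show that nothing is shared. The blocked fit is given as a setting and not as a paired analysis. It also ended the calls of Gpx3 (0.0564), Aox3 (0.061), Foxo3 (0.0593), Ccs (0.0673), Pipox (0.0745) and Aox1 (0.0829) in wild types, of Nox4 in labelled knockouts (0.0592), of Nox4, Hao1, Sepsecs and Sephs2 under leonurine (0.0624 to 0.078), and of all 6 genes in the difference of responses (0.0789 to 0.111). Over all genes the calls in wild types were 692, against 147 to 1351 with a library left out and 75 to 837 under the other settings; in labelled knockouts 219, against 92 to 317 and 113 to 210; between genotypes under saline 2, against 0 to 18 and 0 to 79; under leonurine 1280, against 335 to 1554 and 303 to 1680; and for the difference 391, against 108 to 829 and 102 to 595.

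No called value turned its direction. Among values that were not called, median-ratio scaling gave 0.02 for Prdx3 in wild types, 0.20 for Sod1, 0.18 for Sod2 and 0.03 for Prdx3 in labelled knockouts, -0.06 for Sod1, -0.08 for Sod2 and -0.09 for Gpx1 between genotypes under saline, and 0.02 for Prdx3 in the difference of responses. Quantile normalization gave 0.18 for Prdx3 and 0.16 for Prdx5 in wild types, 0.13 for Sod2 in labelled knockouts, -0.11 for Sod2 and -0.07 for Gpx1 between genotypes under saline, -0.03 for Gpx4 and -0.19 for Prdx3 under leonurine, and -0.26 for Gpx4, -0.17 for Prdx1 and -0.27 for Txn1 in the difference. The block gave -0.02 for Gpx1 under saline and -0.03 for Gpx4, -0.05 for Prdx1 and -0.04 for Txn1 in the difference. With a library left out, the ranges that crossed 0 were, in wild types, -0.40 to 0.12 for Prdx3; in labelled knockouts, -0.19 to 0.18 for Sod1, -0.06 to 0.00 for Sod2, -0.17 to 0.33 for Gpx1 and -0.07 to 0.24 for Prdx6; under saline, -0.11 to 0.17 for Sod1, -0.02 to 0.04 for Sod2 and -0.25 to 0.25 for Gpx1; under leonurine, -0.01 to 0.66 for Prdx1, -0.11 to 0.41 for Prdx3 and -0.20 to 0.17 for Prdx5; and in the difference, -0.26 to 0.31 for Gpx4, -0.34 to 0.34 for Prdx1, -0.30 to 0.22 for Prdx3 and -0.19 to 0.20 for Txn1. The cause was not tested.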
